A study of Drosophila melanogaster with 9 samples.

Results

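Cuticle proteins are the secreted structural proteins that bind or accompany chitin in the exoskeleton, the trachea, the foregut and the corneal lens of insects. The largest Drosophila family, Cpr, carries the Rebers and Riddiford consensus, a chitin-binding stretch that the larval (Lcp), Ccp84 and pupal (Pcp) cuticle proteins share, whereas Tweedle (Twdl) proteins form a separate family of extracellular matrix proteins. Neurons and glia are not known as producers of cuticle, but the brain carries tracheae and lies against the eye and the head epidermis.

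Members were chosen by gene symbol alone: those beginning with Cpr and a digit, Lcp, Ccp84, Pcp, Cpap or Twdl in the platform annotation, with the brightest probe set of each gene. They were 101 of 11982 annotated genes: 66 Cpr, 24 Twdl, 7 Lcp, 3 Ccp84 genes and Pcp. No symbol beginning with Cpap was among them. RNA came from dissected Drosophila melanogaster brains of naturally aged flies kept at 25°C on cornmeal molasses medium, and each of 9 Affymetrix Drosophila 2.0 arrays held 1 sample. Each age, 3, 30 or 60 days (written 3d, 30d and 60d), had 3 arrays. The labels give no strain, genotype, sex or number of brains per sample, and nothing says that samples of an age were separate pools, so each p-value reflects only how much these samples varied. In tissue RNA, fewer cells of a type and less RNA per cell cannot be told apart.

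Levels are given either as the deposited linear signal or as log2(signal + 1). Changes are log2 differences with the SE of the limma model, and p-values were adjusted over all 8171 genes tested. Testing required a level above 5.71 on the log2 scale (a signal of 51.3, the 40th percentile of the table) on 3 or more arrays. All 7 matched neuron markers and all 6 matched glia markers had mean levels above the 60th percentile (6.67 on the log2 scale). One array stood apart in RNA quality: the GAPDH control probe sets differed between 3' and 5' ends by 5.03 (log2) on 3d replicate 1, where the others had 1.58 to 2.07. Median signals were 60.6 to 67.6 at 3d, 76.1 to 78.3 at 30d and 66.5 to 77.0 at 60d.

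Most cuticle protein transcripts were dim in brain. The mean over all arrays lay below the 40th percentile for 61 of the 101 genes, between the 40th and 60th for 17 and above the 60th for 23. Over all annotated genes 4363, 2360 and 5259 of 11982 fell in these ranges. The filter kept 45 members for testing: 33 Cpr, 7 Twdl and 5 Lcp genes. The 3 Ccp84 genes, from a cluster of cuticle genes at the Antennapedia complex, and Pcp, a pupal cuticle protein, were not tested. The brightest Ccp84 gene, Ccp84Ae, averaged 5.07 and Pcp 3.41 on the log2 scale. A probe set's level depends on its probes, so levels place genes against the filter and do not rank their transcripts.

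**Figure D1:**
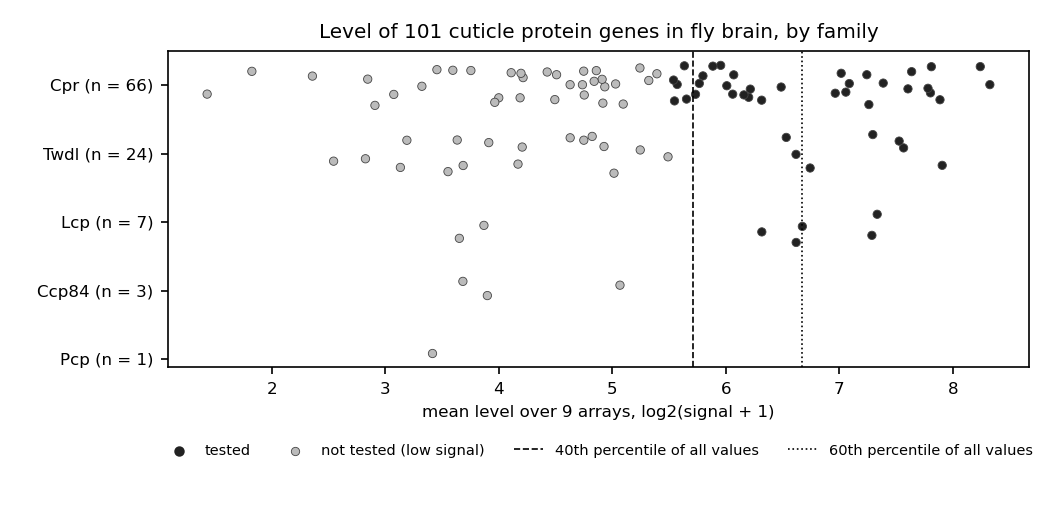
Mean level over the 9 arrays, as log2(signal + 1), of each of the 101 cuticle protein genes, 1 point per gene and 1 row per family, with vertical scatter only for legibility. Dark points are the 45 genes tested, and the 3 Ccp84 genes and Pcp lie wholly among the grey points below the dashed 40th percentile.

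The 5 highest means belonged to Cpr72Ec (8.33), Cpr51A (8.24), TwdlT (7.91), Cpr49Ac (7.89) and Cpr11A (7.81) on the log2 scale. Cpr72Ec is known as a constituent of the corneal lens. Cpr66D, another corneal lens protein, was dim, with signals of 30.9, 29.0 and 29.9 at 3d, 46.2, 45.9 and 42.8 at 30d and 39.7, 50.6 and 25.8 at 60d, and was not tested. The brightest Lcp gene was Lcp65Ag3 (7.33).

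Cpr49Ag fell with age. Its signal was 264, 383 and 386 on 3d replicates 1, 2 and 3, then 116, 62.2 and 102 at 30d, and 52.4, 77.4 and 126 at 60d. No 30d or 60d array reached the lowest 3d array, and the 30d and 60d arrays overlapped. The level averaged 6.34 ± 0.63 at 60d and 8.41 ± 0.31 at 3d on the log2 scale (SD, n = 3 each), a 4.19-fold lower level (log2 difference -2.07 ± 0.31, adjusted p = 0.00201). The 30d difference from 3d was -1.90 ± 0.31 (adjusted p = 0.00256), and that of 60d from 30d was -0.17 ± 0.31 (adjusted p = 0.791). The lowest 60d array sat near the filter value, so the size of the fold rests partly on dim signal. Both calls against 3d were kept in each of 20 alternative analyses, with log2 differences from -2.39 to -1.56 at 60d and from -2.16 to -1.63 at 30d.

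Cpr49Ag lies in a run of 7 neighbouring Cpr49A genes, 3 of which were tested, and neither of the others was called lower. Cpr49Ae was at -0.26 ± 0.17 for 60d against 3d and 0.12 ± 0.17 for 30d against 3d (adjusted p = 0.281 and 0.57). For 30d against 3d median centring turned the sign (-0.14). Its 60d arrays all lay below its 30d arrays, at -0.39 ± 0.17 (adjusted p = 0.31). Cpr49Ac, the brightest of the run, rose at 30d by 0.55 ± 0.19 (adjusted p = 0.0413).

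TwdlE rose at both later ages. Its signal was 111, 138 and 137 at 3d, 222, 217 and 208 at 30d, and 233, 218 and 220.0 at 60d. Every 30d and 60d array exceeded every 3d array, and replicates at the later ages lay close together. The log2 level averaged 7.81 ± 0.05 at 60d and 7.01 ± 0.18 at 3d (SD, n = 3 each), a difference of 0.80 ± 0.13 or 1.74-fold (adjusted p = 0.00315). At 30d it was 0.75 ± 0.13 above 3d (adjusted p = 0.00332), and 60d against 30d was 0.05 ± 0.13 (adjusted p = 0.857). Both rises were kept in each of the 20 alternatives.

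TwdlG, another bright Tweedle gene, did not pass. Its signal ran from 189 to 209.5 at 3d, from 177 to 189 at 30d and from 166 to 202 at 60d, so the 30d arrays lay just below the 3d arrays and the 60d arrays overlapped both. Its log2 difference was -0.08 ± 0.13 for 60d against 3d and -0.12 ± 0.13 for 30d against 3d (adjusted p = 0.691 and 0.487), and 0.04 ± 0.13 for 60d against 30d.

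Cpr72Ec stood out by its 30d level. Its signal was 156, 282 and 314 at 3d, 637, 623 and 672 at 30d, and 123, 251 and 308 at 60d. The 30d arrays lay above every other array, whereas the 3d and 60d arrays overlapped, and the first replicate was the lowest at 3d and at 60d. At 30d the log2 level averaged 9.33 ± 0.06 and at 3d 7.91 ± 0.54 (SD, n = 3 each), a 2.68-fold difference (1.42 ± 0.32, adjusted p = 0.00785), which was called in each of the 20 alternatives. The 60d difference from 30d was -1.60 ± 0.32 (adjusted p = 0.0579) and that from 3d was -0.18 ± 0.32 (adjusted p = 0.721). For 60d against 30d the threshold was passed in 9 of the alternatives, among them those without 3d replicate 1 and without 60d replicate 2. The sign for 60d against 3d turned without 60d replicate 1 (0.21) and without 3d replicate 3 (0.015).

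The adjacent Cpr72Eb rose at 30d by 0.59 ± 0.22 (adjusted p = 0.0483), and its 60d difference from 3d was 0.35 ± 0.22 (adjusted p = 0.278). Cpr66D, the dim lens gene above, was likewise higher on every 30d array than on any 3d array. In the limma fit without a filter it did not pass (adjusted p = 0.0591). The 6 matched corneal lens and retina markers, in contrast, were all called lower at 30d than at 3d, where 21.3% of all genes were. Among them retinin, a corneal lens protein, was at 5.15 ± 0.12 on the log2 scale at 30d and 7.05 ± 0.21 at 3d (SD, n = 3 each; -1.91 ± 0.18, adjusted p = 0.000565). It passed the filter through its 3d arrays alone, and its 30d and 60d arrays all lay below the filter value, so the size of that fall rests on dim signal. The summed signal of these markers ran from 3269 to 3573 at 30d, against 5138 to 6043 at 3d.

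Cpr11A and Cpr62Bb were the other members that passed for 60d against 3d. Cpr11A had signals of 189, 143 and 138 at 3d, 298, 253 and 319.5 at 30d, and 205, 239 and 318 at 60d, so the lowest 60d array exceeded the highest 3d array by a small margin. It rose by 0.68 ± 0.19 at 60d and 0.89 ± 0.19 at 30d against 3d (adjusted p = 0.0295 and 0.0062). Its 60d difference from 30d was -0.21 ± 0.19 (adjusted p = 0.587). The 30d call was kept in each of the 20 alternatives, and the 60d call was lost in 8, among them those without 3d replicate 2 or 3, 30d replicate 1 or 60d replicate 2 or 3.

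Cpr62Bb had signals of 125, 193 and 165 at 3d, 156, 201 and 192 at 30d, and 249, 297 and 213.5 at 60d. Here the 3d and 30d arrays overlapped and the 60d arrays lay above both. It rose by 0.66 ± 0.19 at 60d against 3d (adjusted p = 0.0344). That call was lost in 10 of the 20 alternatives, among them those without 3d replicate 1 or 3, 30d replicate 2 or 3, or 60d replicate 2 or 3. It was at 0.46 ± 0.19 for 60d against 30d and 0.20 ± 0.19 for 30d against 3d (adjusted p = 0.295 and 0.415), the last turning to -0.065 with median centring.

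**Figure D2:**
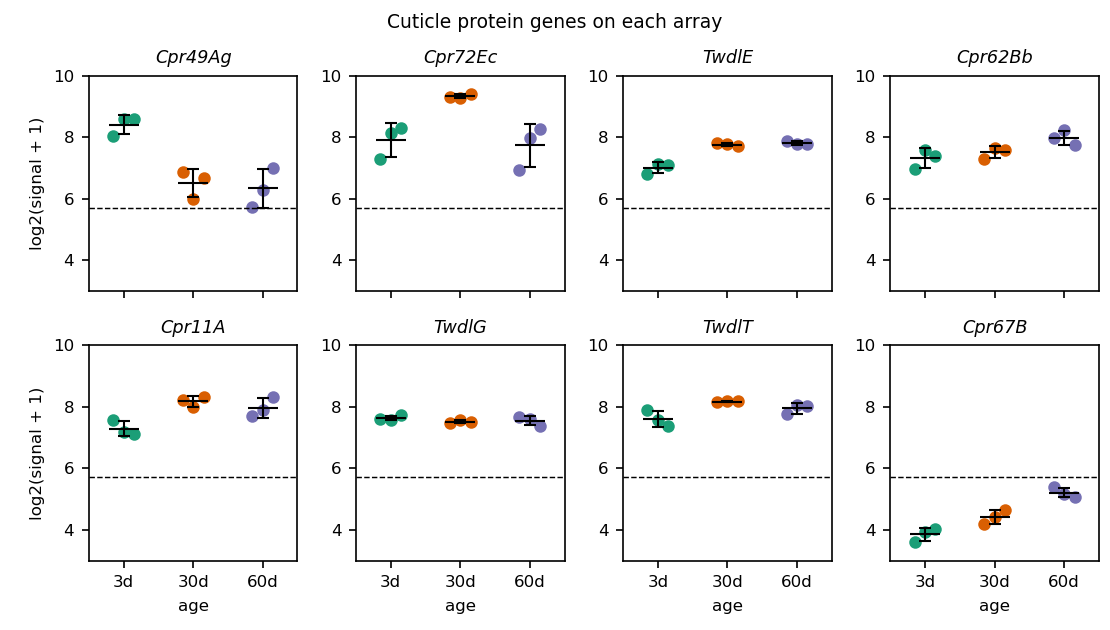
Level of 8 cuticle protein genes on every array, as log2(signal + 1), against age. Points are arrays, horizontal bars and whiskers are the mean and SD of 3 arrays, and the dashed line is the 40th percentile of all values (5.71). Cpr49Ag is lower at 30d and 60d than at 3d, Cpr72Ec is highest at 30d, TwdlE is higher at both later ages and Cpr67B lies below the line throughout.

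Middle-aged brains had higher signals than young brains for almost the whole group, by a modest amount. Of 45 members tested for 30d against 3d, 23 rose and 1 (Cpr49Ag) fell, where 21% of all genes tested rose and 21.3% fell. The members' median log2 difference was 0.54 and that of all genes tested -0.01, and 43 of the 45 were above 0. Among the 33 Cpr genes 18 rose and 1 fell, among 7 Twdl genes 4 rose, and among 5 Lcp genes 1 rose. After Cpr72Ec the largest rises were those of TwdlZ at 0.97 ± 0.20, Cpr11A, Cpr65Aw at 0.86 ± 0.27 and Cpr11B at 0.82 ± 0.18 (adjusted p = 0.00603, 0.0062, 0.026 and 0.00683). The other risers ran from Cpr97Eb at 0.53 ± 0.16 to Cpr56F at 0.77 ± 0.28 (adjusted p = 0.0227 and 0.0469). They include TwdlT at 0.55 ± 0.16, Cpr30B at 0.67 ± 0.20, Cpr78Cc at 0.62 ± 0.19 and Lcp65Aa at 0.59 ± 0.20 (adjusted p = 0.0182, 0.0231, 0.0217 and 0.038). Of the risers 3 (Cpr65Av, Cpr65Aw and Cpr67Fb) had no 3d array above the filter value and entered the test through the later ages where they were higher, so their calls are not independent of the filter. Cpr65Au, Cpr66Cb and Cpr67Fa1, which did not pass, also had no 3d array above it. The medians and counts above 0 of the members tested, at 30d or 60d against 3d, include all of these genes. Those values are therefore not wholly independent of the filter either.

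How many of these passed depended on the scaling and on single arrays. Centring each array on its median shifts all genes of an array alike, so it cannot change how far apart members and all genes lie. It moved the median of all genes tested to -0.27 and that of the members to 0.28, and 6 members rose and 1 fell. Those 6 were Cpr11A, Cpr11B, Cpr65Aw, Cpr72Ec, TwdlE and TwdlZ, while 8.51% of all genes rose and 35.4% fell. With quantile normalization 11 rose and 1 fell, against 14.8% of all genes higher and 25.4% lower. There the median was 0.34 for the members and -0.08 for all genes tested. Leaving out 3d replicate 1, 2 or 3 gave 32, 15 or 5 risers, while 26.7, 17.98 or 8.37% of all genes rose. Leaving out 30d replicate 1, 2 or 3 gave 8, 8 or 5 (12.2, 9.40 or 9.64% of all genes), and leaving out the first 60d array gave 28 (24.0%).

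**Figure D3:**
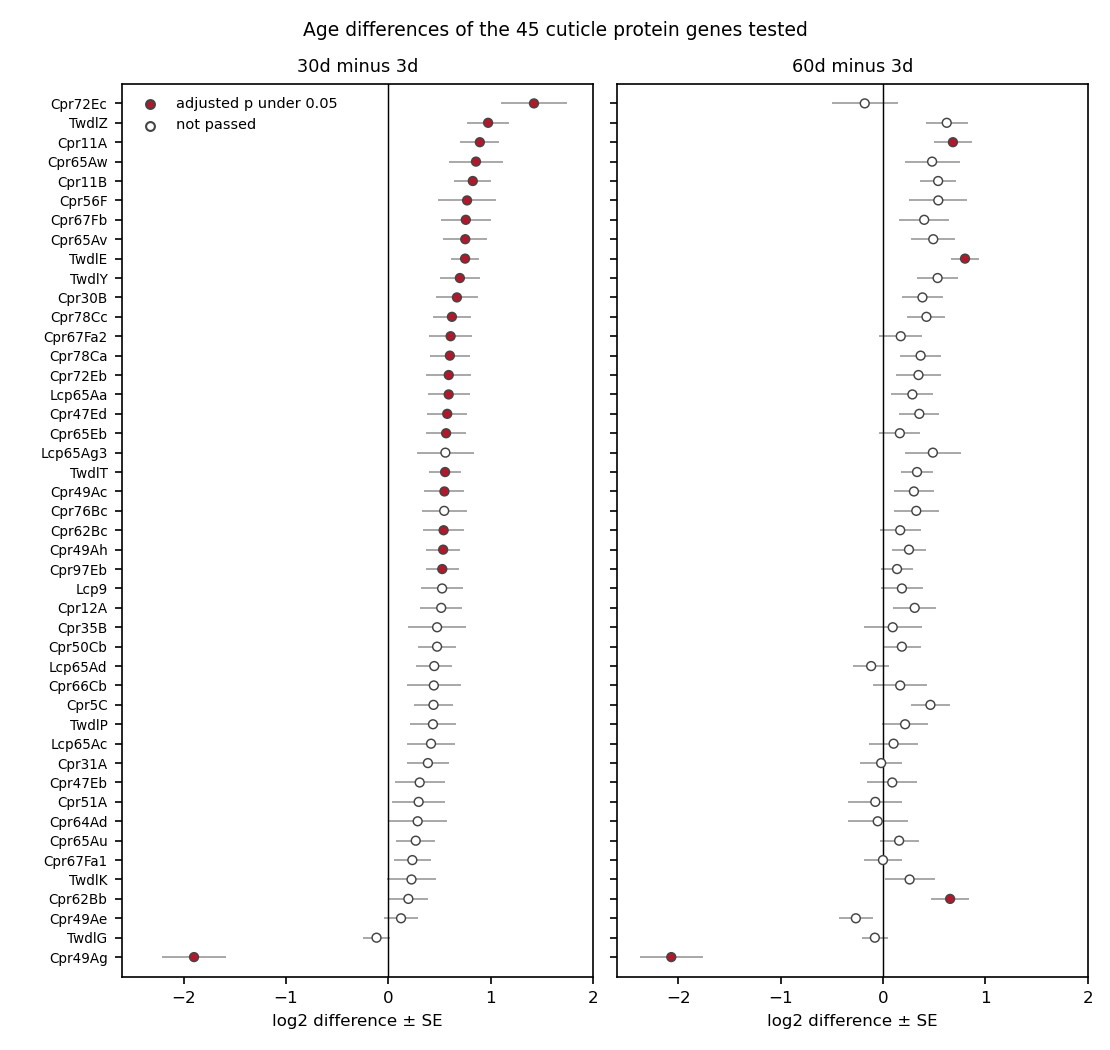
Log2 differences ± SE (limma) of the 45 cuticle protein genes tested, ordered by the 30d difference from 3d. Filled points passed the test (adjusted p under 0.05): 23 above and 1 below 0 for 30d, and 3 above and 1 below 0 for 60d. Nearly all genes lie right of 0 at 30d and closer to 0 at 60d.

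The direction at 30d did not stop at the filter. Over all 101 members 97 had a higher mean at 30d than at 3d, as had 59.4% of all 11982 genes. For 63 members (62.4%) every 30d array exceeded every 3d array, which held for 33.4% of all genes. The level matters for this comparison. Among dim genes, 37 of 61 members (60.7%) had such separation against 45.8% of all dim genes, and the median differences were 0.59 and 0.47. Among bright genes, 13 of 23 members (56.5%) had it against 21.4% of all bright genes, with median differences of 0.55 and -0.12. In the range between, the median difference was 0.54 for the 17 members and 0.19 for all genes. Of all dim genes 80.9% had a higher mean at 30d, against 41.4% of all bright genes and 21 of the 23 bright members. These values are on the deposited scale. On that scale the 5 dim members tested had a median difference of 0.29 and the 552 dim genes tested 0.53. Of these members Cpr65Au, Cpr66Cb, Cpr67Fa1 and Cpr67Fb had no 3d array above the filter value. With quantile normalization the median difference was -0.07 for the 5 dim members tested, below the 0.165 of the 552 dim genes tested. It was 0.28 against -0.08 in the range between and 0.45 against -0.10 among bright genes.

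Single arrays show the same grouping. Relative to each gene's 3d mean, the median bright member stood at 0.31, -0.03 and -0.28 on 3d replicates 1, 2 and 3. It stood at 0.49, 0.56 and 0.56 on those of 30d and at -0.05, 0.47 and 0.36 on those of 60d. The median of all bright genes stayed between -0.13 and 0.05 on the 9 arrays, whereas that of all dim genes was 0.45, 0.50 and 0.44 at 30d and 0.01, 0.43 and 0.27 at 60d. The first 60d array was the lowest of its age for 40 of the 45 members tested, against 38.6% of all genes tested, and 3d replicate 3 for 33 of 45, against 28.9%. Within an age, the SD of the median member tested was 0.31 among 3d arrays, 0.12 among 30d arrays and 0.35 among 60d arrays, against 0.23, 0.094 and 0.21 for all genes tested. Among the 23 bright members the first 60d array was the lowest of its age for 20. The third 3d array was the lowest for 15 and the first for 5, among them Cpr72Ec, Cpr49Ag, TwdlE and Cpr62Bb. The source of these array differences was not tested.

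**Figure D4:**
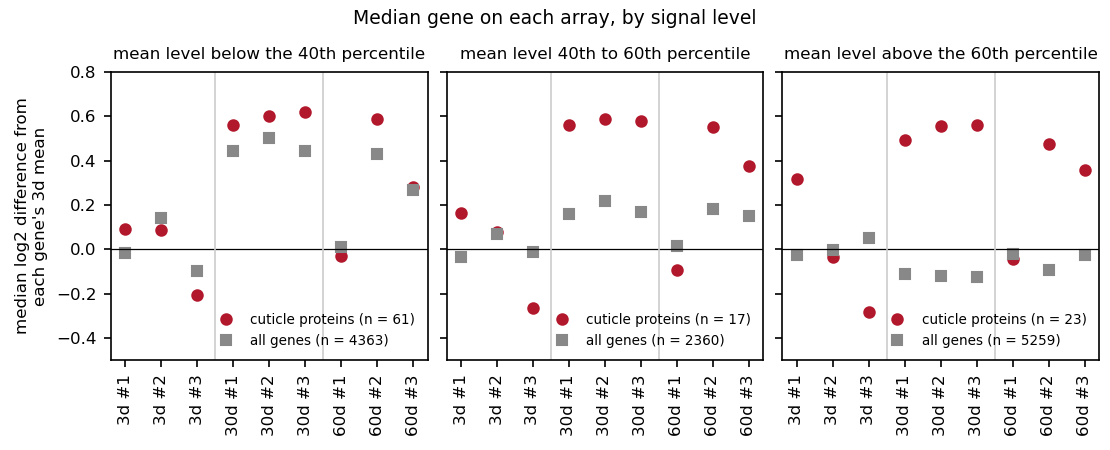
Median log2 difference from each gene's 3d mean on each of the 9 arrays (replicates numbered with #), for cuticle proteins (red circles) and all genes (grey squares), in 3 ranges of mean level. At low level both groups are raised at 30d (0.59 and 0.47 between the age means), while at high level only the red circles are, and the first 60d array is near 0 in each panel.

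Fewer members passed in old brains, in a comparison that shares the 3d arrays with that of 30d. For 60d against 3d, 3 of 45 members rose (Cpr11A, Cpr62Bb and TwdlE) where 8.03% of all genes tested rose, and 1 (Cpr49Ag) fell where 10.5% fell. The members' share of rises was thus near that of all genes. Their median difference was 0.26, against 0.04 for all genes tested, and 36 of 45 were above 0. Over all 101 members 83 were above 0, as were 59.7% of all genes, and every 60d array exceeded every 3d array for 9, against 14.4% of all genes. The count of rises moved with single arrays, as did the share of all genes. It was 8 without 3d replicate 1, 11 without 60d replicate 1 and 30 without both, while 10.6, 16.2 and 26.3% of all genes rose. It was 1 without 3d replicate 3, 60d replicate 2 or 60d replicate 3, while 3.59, 5.495 and 2.77% of all genes rose. TwdlE was in each of these, and the 1 fall was Cpr49Ag each time.

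Between 30d and 60d limma called 0 members in either direction, while 5 had an unadjusted p under 0.05 (1 was higher, 4 lower), and the call rate over all genes was itself low (0.526% higher and 0.0122% lower). The members' median difference was -0.26, against 0.02 for all genes tested, and 40 of 45 were below 0. After Cpr72Ec the lowest were Lcp65Ad at -0.56 ± 0.18 and Cpr67Fa2 at -0.43 ± 0.21 (adjusted p = 0.192 and 0.36). A test of whether the second interval differed from the first called 6 members lower and 1 higher, where 8.3% and 10.1% of all genes were called. The F-test over the 3 ages called 10 of 45 members, where it called 34% of all genes. Those 10 were the 4 genes that passed at 60d and Cpr11B, Cpr65Av, Cpr72Ec, TwdlT, TwdlY and TwdlZ. Of them Cpr65Av had no 3d array above the filter value, so its call is not independent of the filter.

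Cuticle genes lie in tandem, and 67 of the 101 members stood in 14 runs of at least 3 neighbours with no more than 2 other protein-coding genes between them. The 4 genes of the run TwdlX, TwdlY, TwdlZ and Twdlalpha had like differences. Their mean differences ran from 0.70 to 0.97 for 30d against 3d and from 0.53 to 0.70 for 60d against 3d. Like differences were not particular to this run. Those of Cpr78Ca, Cpr78Cb and Cpr78Cc ran from 0.54 to 0.62 for 30d against 3d, where the median of all 101 members was 0.57. TwdlX and Twdlalpha were dim (4.63 and 4.75) and not tested, TwdlY rose at 30d by 0.70 ± 0.20 (adjusted p = 0.0178), and neither TwdlY nor TwdlZ passed at 60d. The 12-gene run that holds TwdlD, in which a dominant mutation alters larval body shape, ranged in level from 2.55 to 7.29 with 2 genes tested, TwdlK and TwdlP, neither of which passed. Within the Cpr49A run the mean differences at 30d spread from -1.90 (Cpr49Ag) to 1.66 (Cpr49Ab, a gene of level 2.36 that was not tested).

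Among the 56 members below the filter, Cpr67B had the largest rise at 60d that separated all arrays, and it was picked out after its values were seen. Its signal was 11.1, 14.3 and 15.2 at 3d, 17.3, 20.6 and 23.9 at 30d, and 40.7, 34.9 and 32.8 at 60d, without overlap between any 2 ages. In the fit without a filter its adjusted p was 0.00256 for 60d against 3d. All of its values lay below the filter signal of 51.3, where the median dim gene of any kind was also higher at 60d than at 3d (0.23, against 1.36 for Cpr67B).

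Probe sets of near-identical copies can read each other's transcripts. A probe set shared by Cpr67Fa1 and Cpr67Fa2 differed by 0.39 for 30d against 3d, whereas the genes' own probe sets gave 0.23 for Cpr67Fa1 and 0.61 for Cpr67Fa2. The second probe set of Lcp65Aa gave 0.32 where the brighter one gave 0.59. These genes' values are therefore uncertain in size.

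Counts for genes that build and harden cuticle stand against the 21% of all genes tested that rose and the 21.3% that fell at 30d against 3d. Of 23 chitin synthesis and modification genes tested, 5 rose and 3 fell, which is near those shares for the rises, with Cda4, a chitin deacetylase, at 0.72 ± 0.23 and Hexo2, a hexosaminidase, at -1.04 ± 0.21 (adjusted p = 0.0283 and 0.00537). Of 12 obstructor and peritrophin-like chitin-binding genes 6 rose, led by Mur29B at 0.72 ± 0.20 (adjusted p = 0.017). Of 8 apical matrix genes 4 rose, with uif, a tracheal transmembrane protein, at 0.88 ± 0.22 and the zona pellucida domain gene dy at 0.66 ± 0.14 (adjusted p = 0.0108 and 0.00685). Of 15 sclerotization and pigment genes 4 rose and 6 fell. The risers included stw, a laccase that cross-links cuticle, at 0.85 ± 0.21 and the yellow family gene yellow-k at 0.86 ± 0.17 (adjusted p = 0.0108 and 0.00498). The fallers included the amine-handling enzymes e (ebony) at -1.76 ± 0.20 and speck at -1.43 ± 0.19, which also act in brain (adjusted p = 0.00158 and 0.00203). Of 5 other cuticle proteins 1 rose, the adult cuticle protein Acp65Aa at 0.67 ± 0.20 (adjusted p = 0.0202). No 3d array was above the filter value for the chitin risers Cda4, ChLD3 and Cht4 and the sclerotization risers y and yellow-e3. The same held for the chitin-binding risers obst-I, Peritrophin-A and Peritrophin-15b. All of them entered the test through the later ages where they were higher, so these counts are not independent of the filter.

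At 60d against 3d, when 8.03% of all genes rose and 10.5% fell, fewer of these passed as well. In the chitin list 2 of 23 rose, near the share of all genes: Idgf1, a chitinase-like growth factor, rose by 1.66 ± 0.25 and Idgf5 by 0.69 ± 0.16 (adjusted p = 0.00198 and 0.0159). The chitin-binding list had 2 risers, obst-I at 0.68 ± 0.17 and Peritrophin-A at 0.65 ± 0.17 (adjusted p = 0.0211 and 0.0225). The apical matrix list had 3, of which pot rose by 0.80 ± 0.20 (adjusted p = 0.0197). Of the sclerotization genes 1 rose and 5 fell. Among the risers named here, obst-I and Peritrophin-A had no 3d array above the filter value, so their calls are not independent of the filter.

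Markers of other tissues were set beside these values, and some of them are also in the lists above. Among these are the risers uif, Mur29B and Peritrophin-A and the fallers ple and Ddc at 30d, so the counts overlap. Of 7 matched trachea markers 4 were tested and 1 rose at 30d and 2 at 60d against 3d, counts too small to set against the 21% and 8.03% of all genes. Their summed signal ran from 733 to 843 at 3d, from 945 to 1021 at 30d and from 895 to 1099 at 60d, with pio, verm and kkv below the 40th percentile. The brightest, sinu (mean 8.69 on the log2 scale), weighs most in that sum. Of 6 matched head epidermis markers 3 were tested: grh rose at 30d by 0.75 ± 0.19, while ple and Ddc, which neurons also use, fell (adjusted p = 0.012, 0.0122 and 0.00606). Their summed signal ran from 1496 to 1959 at 3d, from 1266 to 1332 at 30d and from 1183 to 1387 at 60d. The chitin synthase kkv, its partner knk and resilin lay below the 40th percentile. At 30d against 3d, 2 of 4 foregut and 2 of 5 muscle markers tested rose, where 21% of all genes did. Their median differences were 0.50 and 0.27. There 4 of 8 haemocyte, 3 of 7 neuron and 2 of 6 glia markers fell, where 21.3% of all genes did. At 60d against 3d, 3 of 5 muscle, 1 of 6 fat body and 1 of 4 foregut markers tested rose, where 8.03% of all genes did. Of 8 haemocyte markers 1 rose and 3 fell, where 10.5% of all genes fell. These counts are likewise too small to set against the shares. PPO1 and PPO2, among the haemocyte fallers at 30d, had no 30d array above the filter value. Mp20, a muscle riser at 60d, and Peritrophin-A had no 3d array above it. Calls of these genes are not independent of the filter. The part of these tissues in the cuticle protein values was not tested.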

How the data were processed

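The deposited table held, per probe set and array, a linear signal intensity. GCRMA and MAS5 are named without role or version, per the submitters' processing notes. The values had the same 2% trimmed mean (150.002) on every array and were not quantile normalized. They were analysed as log2(signal + 1), without 183 control probe sets. Names came from the platform annotation, and all 101 members matched the gene reference table (Release 6), used for names and neighbours only, since the files name no build. For each gene the probe set with the highest mean was taken, 2 members having more than 1. Changes were tested with limma 3.58.1 (R 4.3.3), two-sided, with 3 age means fitted to 9 arrays (6 residual degrees of freedom) and Benjamini-Hochberg adjustment at 0.05. The procedure was tested on simulated data. Named genes were the members passing any test, the 5 highest means, the 3 largest changes each way in a comparison, each family's brightest member, and up to 3 called genes each way of other lists. The report names a part of them. Members and lists were chosen with earlier results of these data known. Alternatives covered scaling, filter, pseudocount, probe sets, weights, a block and left-out arrays. No sequence or coordinate was used here. The number of arrays limits the precision.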

Additional observations from a re-analysis of the deposited data

Results flagged for a closer look

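For 7 members the change from 30d to 60d differed from the change from 3d to 30d by limma's test of that difference (adjusted over all genes tested). The difference between the intervals was -3.02 ± 0.56 for Cpr72Ec, -1.33 ± 0.35 for TwdlZ, -1.11 ± 0.31 for Cpr11B, -1.10 ± 0.33 for Cpr11A, -1.01 ± 0.31 for Lcp65Ad and -0.92 ± 0.28 for Cpr97Eb (adjusted p = 0.0307, 0.0375, 0.0388, 0.0438, 0.0449 and 0.0446). It was 1.73 ± 0.54 for Cpr49Ag (adjusted p = 0.0473). Both intervals share the 30d arrays, so a high 30d value enters both with opposite sign. Groups of 3 arrays were too small for the outlier check.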

How the results depend on the processing

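Calls of Cpr49Ag (lower) and TwdlE (higher) against 3d held at both ages in each of 20 alternatives. Rises at 60d against 3d numbered 1 with median centring and 1 with only the arrays of the ages compared. They numbered 5 of 101 members with no filter and 5 of 27 with the filter at the 60th percentile. With no filter Cpr11A and Cpr62Bb were lost. The risers there were TwdlE and, from genes not tested in the main fit, Cpr50Ca, Cpr67B, TwdlX and Twdlalpha. Without the first arrays of 3d and 60d 30 rose. Array weights, whose estimation stopped before convergence, gave 29 rises (2 fell). In the settings before the weights 3.59, 2.78, 5.37, 8.62 and 26.3% of all genes tested rose. With these weights 30.6% of all genes rose at 60d and 33.0% at 30d against 3d, and 32.3% rose and 24.9% fell for 60d against 30d. With 1 array left out the members' rises at 60d against 3d ran from 1 to 11 (2.77 to 16.2% of all genes), and falls stayed at 1. Rises at 30d against 3d numbered 11 with quantile normalization, 6 with centring, 10 with cyclic loess, 38 without the first arrays and 39 with weights, and ran from 5 to 32 with 1 array left out, falls being 1. In the settings before the weights 14.8, 8.51, 13.3 and 31.7% of all genes rose, and from 8.37 to 26.7% rose with 1 array left out. For 60d against 30d 1 fell with quantile normalization, centring, a pseudocount of 16 or the stricter filter. The same number fell with the first arrays left out or the replicate block. In these settings from 0.0122 to 0.0612% of all genes fell. With weights 3 rose and 27 fell. Left-out arrays gave 0 rises and 0 to 2 falls, while from 0 to 1.79% of all genes fell. For the difference between intervals 0 were higher with no filter or the replicate block. The lower ones numbered 2 with centring, cyclic loess or the block, 0 with no filter, 27 without the first arrays and 36 with weights, and with 1 array left out 0 to 1 were higher and 0 to 24 lower. The F-test called 6 with centring, 34 without the first arrays, 44 with weights and 3 to 27 with 1 left out. For the interval test and the F-test the shares of all genes in these alternatives are not given. Whether the counts of these 2 tests are particular to cuticle genes therefore cannot be told. The median change at 60d against 3d ran from 0.12 to 0.43 with 1 array left out (0.56 without both first arrays), at 30d against 3d from 0.40 to 0.65 (0.28 with centring) and at 60d against 30d from -0.39 to -0.11.

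Signs of values that had not passed turned as follows. For 60d against 30d, Cpr11A was at 0.16 with weights, Cpr49Ag at 0.0091 without 30d replicate 1, at 0.13 without 60d replicate 1 or both first arrays (range with 1 left out -0.50 to 0.13) and at 0.53 with weights (adjusted p = 0.00754), and TwdlG at -0.019 without 60d replicate 1 or both first arrays (to 0.12) and at -0.13 with weights. For 30d against 3d, Cpr62Bb was at -0.065 with centring and Cpr49Ae at -0.14 with centring and -0.034 without 3d replicate 1 or both first arrays (to 0.22 with 1 left out). For 60d against 3d, Cpr72Ec was at 0.11 with weights, 0.015 without 3d replicate 3 and 0.21 without 60d replicate 1 (from -0.49 with 1 left out), and TwdlG at 0.0036 (from -0.13) without 60d replicate 3. The causes were not tested.

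The replicate numbers showed no clear pairing of the samples. Same-numbered arrays of different ages had correlations of deviations from -0.33 to 0.14, and 2 of 9 were best matched by their own number. With 3 arrays per age this check cannot exclude pairing. With the replicate block 3 members rose and 1 fell at 60d, and 19 rose and 1 fell at 30d, against 3d. The shares of all genes were 6.74% higher and 8.42% lower at 60d, and 18.4% higher and 18.7% lower at 30d. Below the filter signal (51.3), depth of signal limits what 56 of the 101 members can show.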

Other observations

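Several probe sets of the platform stand for a pair of genes and were left out of the group. One of those for Obp57d and Cpr57A was bright, with levels of 8.11, 7.67 and 7.65 on the log2 scale at 3d, 8.48, 8.47 and 8.31 at 30d, and 7.59, 8.41 and 8.19 at 60d, and its mean differed by 0.61 for 30d against 3d. The other probe set for that pair was at 5.62 on average and differed by -0.62, so the pair's 2 probe sets disagree in sign. The probe set for Cpr65Ax1 and Cpr65Ax2 differed by 0.76, that for Ccp84Aa and Ccp84Ab by 0.58 and that for Lcp65Ag1 and Lcp65Ag2 by 0.43, at mean levels of 5.07, 2.95 and 5.06. These differences have no test here.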
